A study of Homo sapiens with 4 samples.

Results

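The group described is the cluster of cells that the authors numbered 3 in their deposited cell annotation, taken as every cell with that number in either library. It holds 1071 of the 8307 annotated cells, 421 of 4940 in the vehicle library and 650 of 3367 in the estradiol library. All cells are of MDA MB 134VI (MM134), an established line of invasive lobular breast carcinoma that expresses the estrogen receptor and is labelled WT. They were deprived of hormone in medium with charcoal-stripped serum and then given 0.01% ethanol (vehicle) or 100 nM estradiol for 24 h. Each treatment has 1 targeted mRNA library and 1 DNA repair library, so no difference has a replicate check and no p-value is given. All intervals are exact 95% intervals and cover counting error alone, and reads of many UMIs (unique molecular identifiers, the counted molecules) from the same cells are not independent samples. The clusters were drawn by the authors from these cells, so every difference between cluster 3 and the other cells is a description.

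A dividing cell copies its DNA in S phase with the help of replication factors such as the MCM helicase, and in G2 and mitosis it raises a set of genes for spindle assembly and chromosome separation, among them CCNB1, AURKA and TOP2A. Many genes of that set carry CCAAT boxes and a CHR element (TTTGAA or TTCGAA) close to their start, the elements through which the DREAM and MMB complexes and NF-Y act. In estrogen receptor-positive breast cancer cells estradiol acts through ESR1 and its pioneer factor FOXA1, raises genes such as GREB1 and PGR and drives entry into the cycle. The repair libraries used Haircut, in which each cell's enzymes act on synthetic DNA hairpins that carry a lesion, and sequencing reads the position where a strand ends. Uracil in DNA is removed by uracil glycosylases such as UNG, the abasic site that is left is cut by APEX1, and ribonucleotides in DNA are cut by RNase H2, of which RNASEH2A is the catalytic subunit. MDC1, the adaptor named in the title of the study, binds phosphorylated histone H2AX at DNA breaks.

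The sequences below are shown because genes of the G2/M program were the ones furthest below the other cells in cluster 3. CCNB1 is the leading gene of that side, and CENPA, GPSM2 and ASPM are the first of the named lower genes to hold both motifs in the 150 bases before their start. The bases come from RefSeq promoters of GRCh38.p14, and capitals mark, on either strand, a CCAAT box or a CHR motif spelled TTTGAA or TTCGAA.
CCNB1, chr5:69167000-69167149, plus strand: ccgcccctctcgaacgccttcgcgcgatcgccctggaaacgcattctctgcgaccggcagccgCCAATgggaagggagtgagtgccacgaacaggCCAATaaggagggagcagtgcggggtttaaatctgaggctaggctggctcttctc
CENPA, chr2:26785906-26786055, plus strand: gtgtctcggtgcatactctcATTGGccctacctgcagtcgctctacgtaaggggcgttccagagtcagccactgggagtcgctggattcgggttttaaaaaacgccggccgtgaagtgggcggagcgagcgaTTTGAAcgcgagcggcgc
GPSM2, chr1:108876835-108876984, plus strand: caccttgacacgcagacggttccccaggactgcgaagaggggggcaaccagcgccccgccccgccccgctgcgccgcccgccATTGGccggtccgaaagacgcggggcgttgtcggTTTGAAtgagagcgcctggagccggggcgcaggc
ASPM, chr1:197146670-197146819, minus strand: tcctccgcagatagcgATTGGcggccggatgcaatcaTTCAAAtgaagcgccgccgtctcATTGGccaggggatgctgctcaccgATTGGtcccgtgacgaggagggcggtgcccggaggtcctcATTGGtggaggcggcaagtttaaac
In CCNB1 the 150 bases hold CCAAT at positions -87 and -55, counted from the start of the gene, and neither CHR motif. CENPA holds TTTGAA at -18 and CCAAT at -130, and GPSM2 holds them at -34 and -68. ASPM holds TTTGAA at -113 and CCAAT at -134, -90, -65 and -25. Over the 250 bases before the start, 24 of the 44 promoters matched for the 52 genes of the G2/M list held TTTGAA or TTCGAA (54.5%), against 14.6% of 27305 promoters. CCAAT was found in 30 of the 44 (68.2%), against 33.0% of all promoters, and both motifs in 21 (47.7%), against 5.24%. Of the 20 lower genes named below that had a promoter in the table, 6 held both motifs in 150 bases and 7 in 250, so the genes printed were picked for holding them. CCNB1, GPSM2 and ASPM are not in the G2/M list. These matches describe letters in a window and do not show binding.

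Cluster 3 made up 8.52% (7.76 to 9.34) of the vehicle cells and 19.3% (17.98 to 20.7) of the estradiol cells. The authors' phase calls divided the cluster among all 3 phases. In vehicle 179 of its cells were called G1 (42.5%), 93 S (22.1%) and 149 G2M (35.4%), against 51.2%, 15.05% and 33.7% of the other vehicle cells. With estradiol 261 were called G1 (40.2%), 222 S (34.2%) and 167 G2M (25.7%), against 33.2%, 27.8% and 39.0%. The cluster held 7.18% of the G1 cells, 12.03% of the S cells and 8.90% of the G2M cells in vehicle, and 22.4%, 22.7% and 13.6% with estradiol. Whether the larger share with estradiol belongs to the treatment or to the single library cannot be told apart. By summed expression over 7998 genes the clusters most like it were cluster 1, with 69.8% S calls in vehicle (Pearson r = 0.973), and cluster 0, with 81.7% G2M calls (r = 0.968). These r values are across genes of pooled cells and carry no test. The libraries shared 4 cell barcodes, and 2 of those cells were in cluster 3.

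Cells of cluster 3 held the most molecules of any of the 8 clusters in every kind of row and in both treatments. The all-gene rows (the whole transcriptome in the deposited matrix) had a median of 2785 UMIs per cell in vehicle, against 1136 in the other cells, a ratio of 2.45. With estradiol the medians were 2769.5 and 1396, a ratio of 1.98. The panel rows (the genes of the targeted pan-cancer panel) had medians of 5724 against 2295 in vehicle and 4828.5 against 2419 with estradiol. Repair rows differed less, at 1240 against 903 UMIs in vehicle (1.37-fold) and 1597 against 1249 with estradiol (1.28-fold). Repair UMIs per all-gene UMI were thus the lowest of the 8 clusters, with medians of 0.439 against 0.781 and 0.545 against 0.871. Repair depth was high in the cluster, and mRNA depth set it apart by more.

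The deep cells were not of 1 phase. In vehicle the ratio of all-gene medians was 2.99 among G1 cells, 2.23 among S cells and 1.93 among G2M cells, and with estradiol it was 2.297, 2.02 and 1.74. Cluster 3 held 169 of the 247 vehicle cells (68.4%) and 149 of the 171 estradiol cells (87.1%) in the deepest 5% by all-gene UMIs. By repair UMIs it held 69 of 248 (27.8%) and 80 of 169 (47.3%). No cell of the cluster was below 1438 all-gene UMIs in vehicle. Mitochondrial RNA was at a median of 7.76% against 7.64% in vehicle and 7.49% against 7.65% with estradiol. No doublet caller was run and the annotation holds no doublet column, so whether droplets with 2 cells take part in these depths was not tested.

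**Figure D1:**
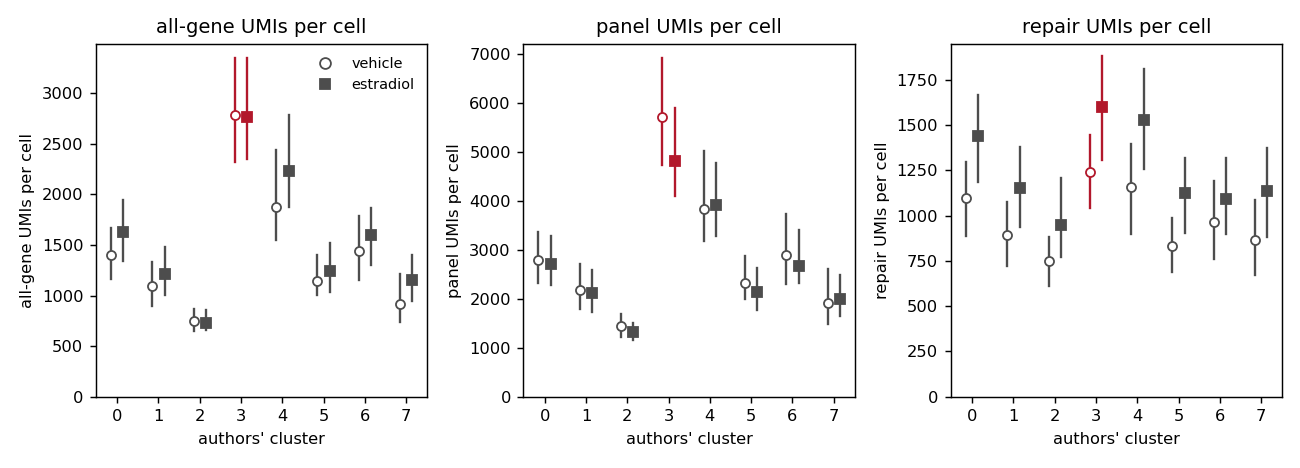
UMIs per cell in the authors' 8 clusters for all-gene, panel and repair rows (y axis, UMIs per cell; x axis, cluster number). Circles are medians of vehicle cells, squares of estradiol cells, and bars run from the lower to the upper quartile. Cluster 3 has the highest median in all 3 kinds of rows, 2785 all-gene UMIs in vehicle and 2769.5 with estradiol.

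The cells carried the identity of the line. All 7 luminal epithelial markers checked (ESR1, GATA3, FOXA1, KRT8, KRT18, KRT19 and EPCAM) were detected, at a summed 6030 CPM (counts of a gene scaled to a fixed total of all-gene counts) in vehicle against 5627 in the other cells, and 7537 against 6683 with estradiol. EPCAM alone of the luminal markers was lower in the cluster, at 282.5 against 375.5 CPM in vehicle and 295.9 against 318.7 with estradiol. Of 7 basal markers 6 were at 0 UMIs in the cluster, and MYLK alone gave 1.65 CPM in vehicle and 1.59 with estradiol. All 6 immune and all 4 endothelial markers were at 0 UMIs. Mesenchymal markers summed to 245 CPM against 256 and 205 against 192, with COL1A2 and PDGFRB at 0. The mesenchymal markers were thus at a similar level inside and outside the cluster.

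Relative to their totals most genes were close to the level of the other cells. Among panel genes with at least 200 UMIs, 17 were at least 1.5-fold higher and 9 at least 1.5-fold lower of 833 in vehicle, and 6 and 12 of 807 with estradiol. Among all-gene rows the counts were 71 higher and 146 lower of 5369 in vehicle and 19 and 88 of 4762 with estradiol. The median log2 ratio over these genes was 0.02 and 0.03 for panel genes and -0.02 and -0.00 for all-gene rows. No gene was 2-fold higher in any of these, while 3 and 5 panel genes and 20 and 21 all-gene rows were 2-fold lower. Over the wider set of genes with at least 50 UMIs, used for the gene lists, 2.95% of 915 panel genes were 1.5-fold higher and 2.3% lower in vehicle, and 1.58% of 885 higher and 2.26% lower with estradiol. For all-gene rows these background shares were 4.85% of 9764 higher and 5.5% lower in vehicle, and 3.16% of 9241 higher and 3.31% lower with estradiol.

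**Figure D2:**
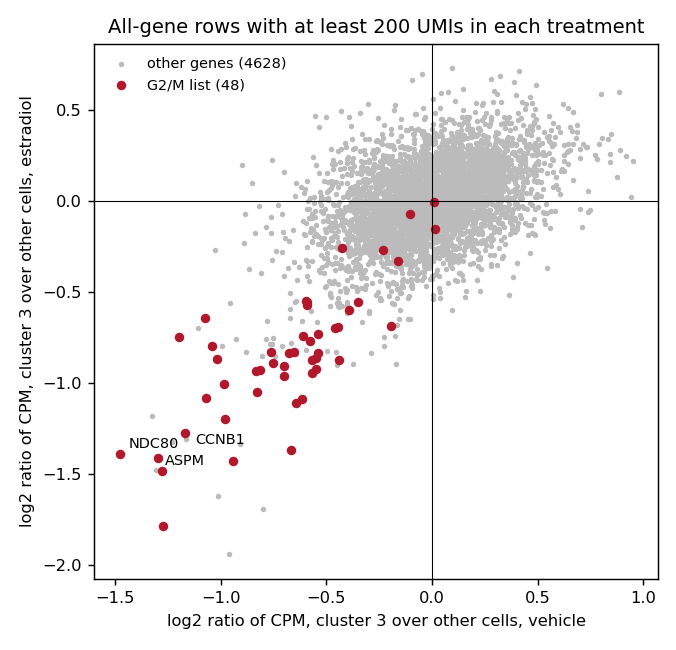
Log2 ratio of CPM, cluster 3 over the other cells, in vehicle (x axis) and estradiol (y axis), 1 point per all-gene row with at least 200 UMIs in each treatment. Most genes of the G2/M list lie towards the lower left, near the labelled mitotic genes CCNB1, at -1.16 and -1.31, and ASPM, at -1.31 and -1.48, which are not in the list.

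The genes furthest below the other cells in both treatments were those of G2 and mitosis. CCNB1, the cyclin that activates CDK1 at entry into mitosis, was at 1292 panel CPM (1248 to 1337) in vehicle against 2990 in the other cells, and at 1050 (1015 to 1085) against 2700 with estradiol. The log2 ratios were -1.21 (-1.26 to -1.16) and -1.36 (-1.42 to -1.31). AURKA, the kinase of spindle poles, was at 531 against 1216 CPM and 485 against 1204, log2 ratios of -1.19 and -1.31. CENPA, the histone H3 variant of centromeres, was at 148 against 317 CPM in vehicle and 100.4 against 263 with estradiol, -1.10 and -1.39. These genes were thus below the other cells in both treatments over all phases, and when the log2 ratios of the 3 phases were averaged CCNB1 was at -0.20 and -0.24, AURKA at -0.14 and -0.17, and CENPA turned to 0.36 and 0.20.

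CCNA2, the cyclin of S phase and G2, had log2 ratios of -0.94 in vehicle and -1.18 with estradiol. The checkpoint kinase TTK had -0.91 and -1.04, and TOP2A, the topoisomerase that untangles replicated DNA, had -0.86 (13513 against 24586 CPM) and -0.99 (11260 against 22322). With the 3 phases averaged, CCNA2 was at 0.15, TTK at 0.14 and TOP2A at 0.072 in vehicle, and at -0.32, -0.11 and -0.16 with estradiol. CDC25C, the phosphatase that activates CDK1, had -0.73 and -0.91 (0.18 and -0.0087 with phases averaged), and GPSM2, which orients the spindle, -0.56 and -0.76. The other named panel genes on this side were ALPK1 (-0.78 and -0.62), BRD8 (-0.66 and -0.56), the CDK inhibitor CDKN2D (-0.48 and -0.61) and the DNA methyltransferase DNMT3B (-0.47 and -0.43).

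The all-gene rows gave the same picture from separate rows of the matrix, though whether the 2 kinds of rows share molecules was not given in the sources used here. NDC80, a kinetochore subunit, was at 18.2 against 50.6 CPM in vehicle and 18.5 against 48.5 with estradiol (log2 ratios of -1.48 and -1.39). ASPM, a spindle pole protein, was at 153 against 378 and 120.5 against 336 CPM. CENPE, the kinetochore motor, had log2 ratios of -1.28 and -1.48, and HMMR, which binds spindle microtubules, -1.30 and -1.41. AURKA had -1.27 and -1.79, CCNB1 -1.16 and -1.31, KPNA2 -1.23 and -1.33, KIF14 -1.32 and -1.18, DLGAP5 -1.17 and -1.27, KIF2C -1.07 and -1.08, KIF20A -1.01 and -1.62, and CENPF -0.99 and -1.01. With the 3 phases averaged, HMMR, CENPE, AURKA, KIF14, DLGAP5, KIF2C, KIF20A and CENPF lay between 0.0062 and 0.47 in vehicle, and HMMR at 0.13 and KIF2C at 0.056 with estradiol. Of the 52 genes of the G2/M list 33 were at least 1.5-fold lower in vehicle and 41 with estradiol, while 0 were at least 1.5-fold higher and 2 were above the other cells at all in vehicle. Their median log2 ratio was -0.66 in vehicle, beside a median of -0.02 over all rows with at least 200 UMIs, and -0.87 with estradiol.

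Within phase calls, the G2/M list was below the other cells in both treatments in cells called G2M. G2M calls were 35.4% of the cluster against 33.7% of the other cells in vehicle, and 25.7% against 39.0% with estradiol. The part of these shares in the list's ratio over all phases was not tested. Summed over the list, G2M cells of cluster 3 were at 13736 CPM in vehicle against 25900 in the other G2M cells, and at 13775 against 21823 with estradiol. Cells called S were nearly level, at 7305 against 7277 and 7183 against 7461 CPM. Cells called G1 were higher than other G1 cells, at 3896 against 2185 CPM and 3400 against 2867. The range of the list across phase calls was therefore narrower in cluster 3 than in the other cells. How the phase calls were made was not given in the sources used here. The calls may rest on the same genes, so levels by call are a description. When the log2 ratios of the 3 phases were averaged, the list median was 0.08 in vehicle and -0.11 with estradiol. Among G2M cells in the same 4 depth bins from 1800 all-gene UMIs it was -1.06 and -1.01.

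**Figure D3:**
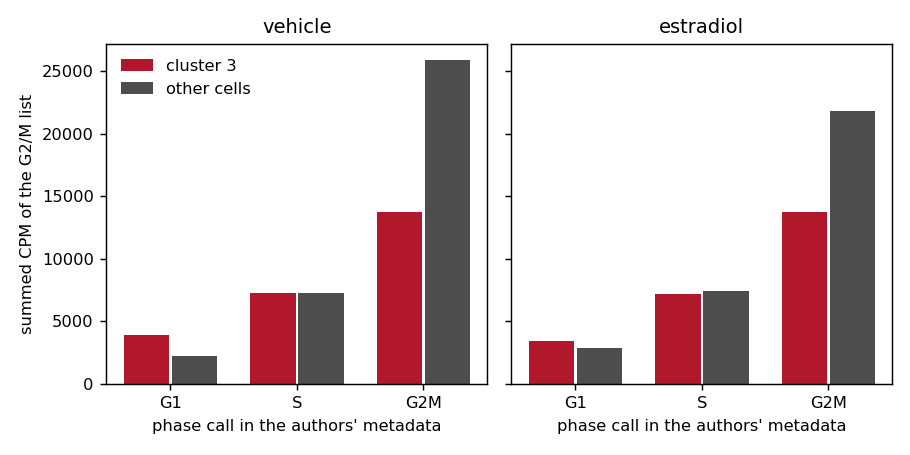
Summed CPM of the 52-gene G2/M list in all-gene rows (y axis) for cells called G1, S and G2M (x axis), cluster 3 beside the other cells, in vehicle and estradiol. G2M cells of cluster 3 lie near 13736 and 13775 CPM, below the other G2M cells at 25900 and 21823, while its G1 cells lie above the other G1 cells.

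S-phase genes differed less. The S-phase list had a median log2 ratio of 0.20 over 42 all-gene members in vehicle, with 4 of them past 1.5-fold on the higher side and 0 on the lower, and -0.01 with estradiol, with 1 higher. MCM5, a subunit of the replicative helicase, was at 805 panel CPM against 534 in vehicle (log2 ratio 0.59) and 956 against 727 with estradiol (0.40). Summed over the list, cells called S were lower in the cluster than outside it, at 8175 against 9524 CPM in vehicle and 8071 against 9285 with estradiol. Cells called G1 were at 2549 against 1832 and 2727 against 2521 CPM. The histone list, which also holds variant histone genes such as H2AFZ and H3F3B, had panel medians of -0.12 and -0.31. Its member HIST1H3D was at 986 against 1316 CPM in vehicle and 1132 against 1882 with estradiol. TONSL, a replication-fork repair factor, was among the named higher all-gene rows, at 42.1 against 27.0 CPM and 52.8 against 37.1.

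Genes on the higher side had smaller ratios. DDIT3, the transcription factor CHOP of the integrated stress response, was at 169.8 panel CPM (154 to 187) against 92.5 in vehicle, a log2 ratio of 0.88 (0.71 to 1.04), and at 123 against 80.5 with estradiol, 0.61 (0.43 to 0.80). Its 425 UMIs in vehicle came from 161 of the 421 cells, with 10.1% of them in 1 cell, and with estradiol 17.0% of 411 UMIs were in 1 cell. NR4A1, an immediate-early nuclear receptor, had 0.58 and 0.55, but with estradiol it was at -0.29 when 4 depth bins from 1800 all-gene UMIs had equal weight. CEBPD had 0.69 and 0.55, and the RNase ZC3H12A, which degrades cytokine mRNA, 0.42 and 0.50. The phosphatase DUSP8 had 0.55 and 0.60, but -0.0013 in vehicle in the depth bins. The scaffolds MAPK8IP1 and MAPK8IP2 of the JNK pathway had 0.48 and 0.55, and 0.60 and 0.41.

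NUMBL, an adaptor of the Notch pathway, was at 126 against 82.2 CPM in vehicle and 149 against 95.1 with estradiol. The kinase IKBKE had log2 ratios of 0.68 and 0.59, the cytokine receptor IL6R 0.61 and 0.40, CD74 0.58 and 0.43, and INHA 0.40 and 0.51. Among all-gene rows PHLDA2 led, at 118 against 64.0 CPM in vehicle, a log2 ratio of 0.89 (0.60 to 1.17), and at 116 against 76.9 with estradiol, 0.60. The mitochondrial citrate carrier SLC25A1 was at 110 against 69.2 and 129.5 against 92.2 CPM, and the nucleoside diphosphate kinase NME4 at 199 against 135 and 238 against 172. RGL2, ENHO, C5AR2, PSAP, SSBP4, PPP1R14B, RNF40 and NOP14 were the other named rows on this side, with log2 ratios between 0.45 and 0.80.

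Immediate-early genes had medians of 0.24 and 0.23 over 8 panel members and 0.16 and 0.28 over 18 and 16 all-gene members. JUN was at 2113 against 1691 panel CPM in vehicle and 1330 against 1049 with estradiol. Genes of the p53 response had panel medians of 0.11 and 0.14 with 0 of 7 past 1.5-fold, and CDKN1A, the CDK inhibitor p21, was at 2122 against 1548 and 1213 against 989 CPM. HSPA6 stood out in vehicle at 26.4 panel CPM against 3.89, but 34 of its 66 UMIs were in 1 cell, and with estradiol it was at 7.20 against 6.84. The heat shock list had all-gene medians of -0.07 and -0.09.

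The receptor and its targets were moderately higher in vehicle. ESR1 was at 4111 panel CPM against 3174 in vehicle (log2 ratio 0.37) and 3681 against 3152 with estradiol (0.22). In the 30 measured estrogen-induced genes of the all-gene rows the median was 0.32 in vehicle, with 10 past 1.5-fold upward and 0 downward, and 0.17 over 33 with estradiol, with 2 higher. Estrogen-repressed panel genes had medians of 0.02 in vehicle and 0.21 with estradiol over 12 members, with 0 past 1.5-fold. E2F1, a transcription factor of cell-cycle entry, was at 702 against 418 panel CPM in vehicle and 834 against 694 with estradiol, and the ligand WNT4 at 161 against 104 in vehicle. RARA, a retinoic acid receptor, had log2 ratios of 0.43 and 0.29, and the ligand AREG was at 159 against 216 CPM with estradiol. PGR was at 7.59 panel CPM (4.57 to 11.9) against 8.29 in vehicle and 20.7 (16.1 to 26.2) against 24.5 with estradiol. TFF3, a secreted luminal peptide, was at 365 against 189 CPM in all-gene rows in vehicle.

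The 8 per-cell scores that the authors named for ER, FOXA1 and MDC1 all had their highest cluster median in cluster 3, in both treatments. For example the score named ER--MDC1 had a median of 0.108 against 0.0832 in vehicle and 0.107 against 0.0896 with estradiol. How the scores were built was not given in the sources used here. All-gene depth moved with them, being 2.45 and 1.98 times that of the other cells, and its part in the scores was not tested.

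Genes of DNA repair were close to level with the other cells. MDC1 was at 834 panel CPM (799 to 871) against 876 in vehicle, a log2 ratio of -0.07, and at 854 (823 to 886) against 830 with estradiol, 0.04. PARP1, which senses strand breaks, had log2 ratios of 0.11 and 0.05, and PARP2 0.03 and -0.15. Base excision genes had all-gene medians of 0.10 over 26 members in vehicle, with 2 at least 1.5-fold higher and 0 lower, and -0.03 over 25 with estradiol, with 1 higher and 2 lower. Homologous recombination and Fanconi genes had panel medians of 0.03 and -0.08 with 0 of 25 past 1.5-fold. The panel medians were -0.05 and -0.03 for end joining, -0.09 and -0.02 for mismatch repair, and -0.09 and 0.01 for nucleotide excision. In damage signalling 1 of 10 was lower in each treatment, CDC25C.

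The enzymes that act on the hairpins were read from all-gene rows. UNG was at 28.9 CPM (20.1 to 40.2) against 27.0 in vehicle and 54.4 (44.4 to 66.0) against 33.9 with estradiol, log2 ratios of 0.10 and 0.68 (0.30 to 1.06). APEX1 was at 192.5 against 167.5 and 189 against 181 CPM, with log2 ratios of 0.20 (-0.01 to 0.41) and 0.06. RNASEH2A was at 22.3 against 14.7 CPM in vehicle, 0.60 (-0.08 to 1.24), and at 33.3 against 32.4 with estradiol, 0.04. Of these 3 genes in both treatments, only UNG with estradiol had an interval that left out 0.

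Against the other cells, where the repair hairpins were read in cluster 3 differed by hairpin. The hairpin sequences were not used here, so the place of each lesion was not checked against these position numbers and the window is not shown to be the cut site of every hairpin. The share of a hairpin's UMIs that lay at positions 44 to 50, a window around position 46, where Abasic UMIs were most often read, was lower for the Abasic hairpin, at 45.9% (45.4 to 46.5) against 66.0% in vehicle and 45.4% against 61.8% with estradiol. It was higher for the GU hairpin, at 10.5% against 6.88% and 10.6% against 7.91%, and for riboG, which carries a ribonucleotide, at 8.87% against 5.77% and 7.49% against 5.53%. Uracil3 was at 12.7% against 9.84% and 12.9% against 10.9985%, Uracil2 at 17.1% against 15.1% and 16.2% against 15.2%, and Uracil1 at 25.8% against 27.7% and 26.8% against 28.4%. The Normal, CI and TI hairpins had at most 0.287% of their UMIs in the window, with 0.168%, 0.158% and 0.287% in vehicle against 0.106%, 0.130% and 0.248%.

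The lower Abasic share came with more UMIs outside the window and slightly fewer inside it. A cell of cluster 3 held 37.7 Abasic UMIs in the window in vehicle, against 40.0 in the other cells, and 46.2 against 47.1 with estradiol. All Abasic UMIs per cell were 82.1 against 60.6 and 101.8 against 76.1. At position 46, the most-read position, the cluster had 30.8% of Abasic UMIs against 49.5% in vehicle and 31.4% against 46.3% with estradiol. At position 6 it had 7.67% against 3.86% and 7.20% against 4.18%, and at position 8 3.84% against 1.94% and 4.04% against 2.24%. For GU both the share and the number were higher, with 22.5 window UMIs per cell against 13.3 in vehicle and 30.2 against 20.2 with estradiol. For riboG they were 10.3 against 4.81 and 10.9 against 6.19.

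**Figure D4:**
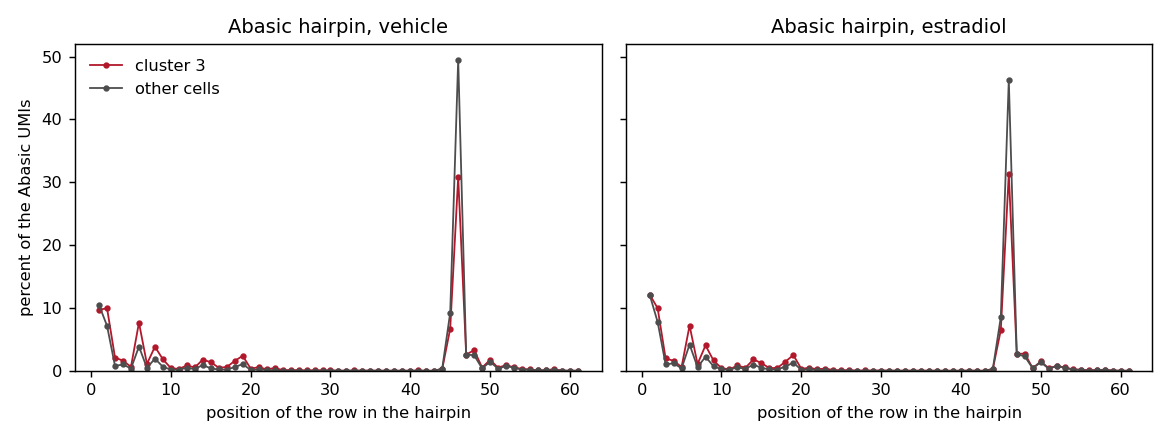
Percent of Abasic UMIs (y axis) at each of the 61 positions of the hairpin (x axis), cluster 3 and the other cells, in vehicle and estradiol. Cluster 3 is lower at position 46, 30.8% against 49.5% in vehicle, and higher at positions 6 and 8.

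The spread among single cells was wide. Among cells with at least 20 Abasic UMIs the median window share was 46.8% in cluster 3 in vehicle, with 10% of cells below 28.8% and 10% above 66.7%, against a median of 71.0% in the other cells. With estradiol the medians were 47.5% and 66.7%. GU medians were 9.80% against 5.56% and 9.64% against 6.58%. Other hairpins were read most at other positions. GU was most often read at position 15, at 13.4% in the cluster against 12.8% in vehicle, while the other cells had their peak at position 6, at 14.3% against 9.98% in the cluster. The riboG hairpin was most often read at position 9, at 14.7% against 14.1%, and Uracil1 at position 45, at 14.4% against 18.8%.

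The Abasic share was lower in deeper cells, inside and outside the cluster. Among the other cells it was 73.3% in vehicle cells under 800 all-gene UMIs and 43.8% in those of at least 3200, and 64.4% and 45.5% with estradiol. In vehicle cluster 3 went from 54.4% in cells of 1800 to 2200 UMIs to 38.6% in cells of at least 3200. With estradiol the cluster went from 54.4% to 37.9%. At equal weight for 4 bins from 1800 UMIs the cluster was 3.56 percentage points below the other vehicle cells and 4.67 below the other estradiol cells, in place of 20.1 and 16.4 points. The bins of at least 3200 UMIs held 117 cells of the cluster and 51 others in vehicle, and 193 and 34 with estradiol. In each bin most of the other cells were called G2M, from 227 of 393 vehicle cells at 1800 to 2200 UMIs to 47 of 51 in the deepest bin. With estradiol these were 248 of 385 and 34 of 34. In the cluster G2M calls were 19 of 65 and 44 of 117 in those vehicle bins, and 11 of 94 and 65 of 193 with estradiol. The part of phase in the differences by bin was not tested. The GU share of the other cells was 4.72% in vehicle under 800 UMIs and 9.07% from 3200, and 6.29% and 9.61% with estradiol. In cluster 3 the GU share was higher in all 4 bins of both treatments, by 1.89 and 2.39 points at equal weight, in place of 3.57 and 2.69. The riboG share differed by 0.11 and 0.13 points, with directions that varied by bin. It was higher in the cluster at 1800 to 2200 UMIs (8.34% against 7.88% in vehicle, 7.77% against 6.54% with estradiol). From 3200 UMIs it was lower (9.23% against 9.82%, and 7.90% against 9.41%). For Uracil1 the direction turned: its share was higher in the cluster in all 4 bins of both treatments, by 1.40 and 2.57 points at equal weight.

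**Figure D5:**
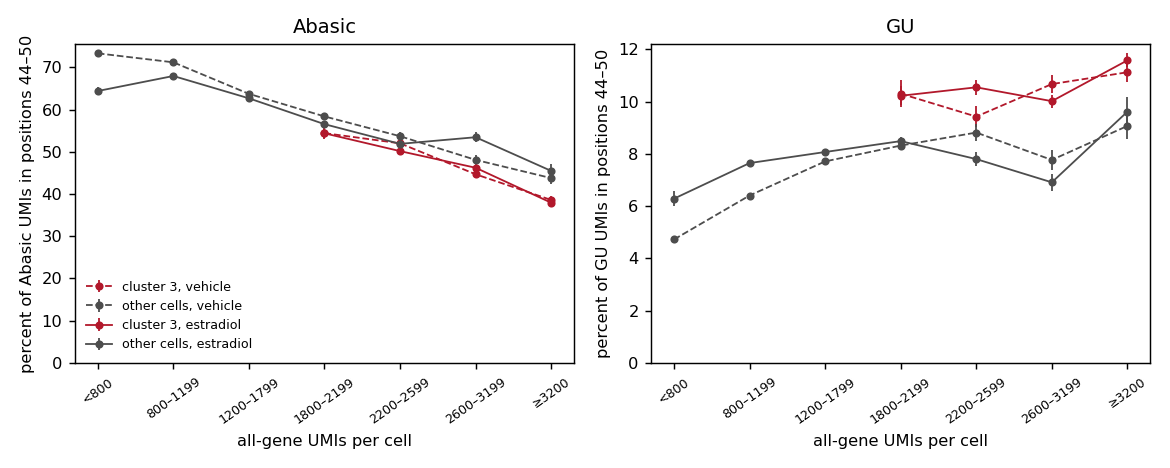
Percent of Abasic and of GU UMIs at positions 44 to 50 (y axis) in cells grouped by all-gene UMIs per cell (x axis), cluster 3 and the other cells, in vehicle and estradiol (bars are exact 95% intervals). The Abasic share is lower in the deepest cells than in the shallowest of each group. In vehicle GU in cluster 3 lies at 9.43% to 11.1%, where the others lie at 7.77% to 9.07% in the same bins and at 4.72% under 800 UMIs.

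Among G2M cells alone, cluster 3 was set against cluster 4, whose cells are deep and called G2M, with 149 and 482 cells in vehicle and 167 and 252 with estradiol. Median depths were 2869 and 1872.5 all-gene UMIs in vehicle and 2973 and 2232 with estradiol. The Abasic share was 43.0% against 56.3% in vehicle and 40.5% against 53.03% with estradiol. GU was at 9.72% against 6.47% and 10.1% against 6.32%, and Uracil3 at 12.7% against 6.72% and 11.97% against 7.65%. Uracil1 was at 23.7% against 22.7% and 24.2% against 21.7%. The riboG share was 9.15% against 8.10% and 7.43% against 7.55%.

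Estradiol against vehicle inside the cluster compared 650 with 421 cells. In panel rows 16 genes were at least 1.5-fold higher and 87 lower of 826 with at least 100 UMIs, and among the other cells the same genes gave 25 and 82. The median log2 ratio was -0.11 inside and -0.10 outside. In all-gene rows the counts were 198 and 164 of 5008 inside, against 153 and 143 in the other cells. Over genes with at least 50 UMIs the background shares inside the cluster were 1.97% of 861 panel genes higher and 11.7% lower, and 5.26% of 7421 all-gene rows higher and 5.67% lower.

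PGR, WNT4 and EGR3, of the estrogen-induced list, were higher with estradiol inside the cluster. The other panel genes given here were named by the rank of their ratio. PMAIP1, the BH3-only protein NOXA, was at 85.9 panel CPM in vehicle and 193 with estradiol, a log2 ratio of 1.17 (0.94 to 1.40), against 1.34 in the other cells. PGR went from 7.59 to 20.7 CPM, 1.45 (0.70 to 2.26), against 1.56. WNT4 went from 161 to 283 CPM, a log2 ratio of 0.81 (0.64 to 0.99) inside and 1.33 (1.22 to 1.43) outside. EGR3, an immediate-early factor, went from 175 to 352 CPM and RASGRP1, an exchange factor for RAS, from 100.3 to 201. The receptor FZD7, the kinase JAK2, LAMA3, NOTCH1, BID and PLCE1 were higher by log2 ratios between 0.71 and 1.05.

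In all-gene rows PEG3 led, at 71.0 CPM in vehicle and 270 with estradiol (log2 ratio 1.93, against 1.90 outside). GREB1 went from 33.0 to 80.3 CPM, 1.28 against 1.37, and BOP1, a factor of ribosome assembly, from 14.9 to 47.0, 1.66 against 0.65. BOP1 rested on 18 UMIs in vehicle and 89 with estradiol inside the cluster. RGS7, CLDN7, AC240274.1, SFXN2, ELOVL2, C5AR2 and SGK3 were the other named rows on this side, with log2 ratios below that of BOP1. In vehicle they held from 22 UMIs (RGS7) to 58 (ELOVL2) inside the cluster. The list of estrogen-induced genes had 15 of 31 past 1.5-fold upward and 0 downward, its median being 0.50 inside and 0.92 outside. Ribosome biogenesis genes had a median of 0.53, with 7 of 17 higher, and NCL went from 914 to 1580 CPM. HSPA5, the chaperone of the endoplasmic reticulum, went from 104 to 216 CPM and 6 of 17 genes of its list were higher, with a median of 0.28 inside and outside. KRT8 went from 781 to 1539 CPM.

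Lower with estradiol was TXNIP, the thioredoxin-binding protein, at 2764 panel CPM in vehicle and 799.5 with estradiol, a log2 ratio of -1.79 (-1.85 to -1.72) against -2.20 outside. DDIT4, an inhibitor of mTOR signalling, went from 127 to 42.3 CPM, -1.59 (-1.89 to -1.30) against -0.96, with 17.6% of its vehicle UMIs in 1 cell. PPARGC1A went from 59.5 to 20.1 CPM and BTG2, an antiproliferative gene, from 709 to 272. CXXC4, LAG3, ITGB8, IL11RA and TNFSF10 had log2 ratios between -1.54 and -1.16. The receptor kinase ERBB3 went from 3235 to 1624 CPM. Estrogen-repressed panel genes were past 1.5-fold downward in 11 of 12, their median being -1.07 inside and -1.20 outside.

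In all-gene rows the lower genes included the cadherin CDH2, from 57.8 to 20.1 CPM, and the ion transporter SLC12A2, from 249 to 92.0. MS4A7, SAT1, PRR15, SHISA2, KCNMA1, S100A6 and IL1R1 had log2 ratios between -1.58 and -1.25. Replication genes had a median of 0.25 over 42 genes inside, with 5 at least 1.5-fold higher, and 0.49 outside, and CDC6 went from 765 to 1149 panel CPM. The share of S calls in the cluster moved with this, from 22.1% to 34.2%, and among its S cells the summed S-phase list was at 8175 CPM in vehicle and 8071 with estradiol. The G2/M list had a median of -0.14 inside and 0.02 outside. G2M calls went from 35.4% to 25.7% of cells inside and from 33.7% to 39.0% outside, and their part in these medians was not tested. Among G2M cells the summed list was at 13736 CPM in vehicle and 13775 with estradiol inside, and at 25900 and 21823 outside. Immediate-early genes had a panel median of -0.52, with 1 of 8 higher and 4 lower, and -0.51 outside.

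Some genes had a different ratio inside and outside the cluster, and these differences were ranked and not tested. FOXO1, a transcription factor restrained by AKT, had -0.96 inside and -1.71 outside, and FOS, which went from 996 to 592 CPM inside, had -0.75 and -1.17. TNC had -0.08 and -0.74, and CASP8 0.11 and -0.35. IGFBP3, which binds insulin-like growth factors, went from 266 to 119.9 CPM inside and from 156 to 107 outside, -1.15 and -0.55. CNTFR had -0.38 and 0.19 and WNT10B -0.16 and 0.37. Among all-gene rows STX17, of autophagosome fusion, had 0.81 and -0.49, NAPG 1.11 and 0.01, ZNF785 1.08 and 0.06 and RNMT 0.62 and -0.35. On the other side EBF4 had -0.84 and 0.22, ENO2 -0.38 and 0.56, PITX1 -0.39 and 0.52 and MLX -0.46 and 0.45. Inside the cluster these all-gene rows held few UMIs. In vehicle and with estradiol they were 28 and 77 for STX17, 33 and 111 for NAPG, 26 and 86 for ZNF785 and 50 and 120 for RNMT. They were 54 and 47 for EBF4, 50 and 60 for ENO2, 105 and 125 for PITX1 and 52 and 59 for MLX. For PNRC1 and CCNA2 the all-gene rows also held few UMIs, and the panel rows gave smaller gaps. PNRC1 had -0.16 and -1.14 from 55 and 77 UMIs inside the cluster, and -0.95 and -1.21 in its panel row from 1954 and 1345. CCNA2 had -1.08 and -0.18 from 62 and 46 UMIs, and -0.39 and -0.14 in its panel row from 999 and 1018.

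MDC1 was at 834 panel CPM in vehicle and 854 with estradiol inside the cluster, a log2 ratio of 0.03 (-0.05 to 0.12), against -0.08 in the other cells. In its all-gene row it was at 55.3 and 76.1 CPM, 0.46 (0.03 to 0.90), so the size of the ratio depended on the kind of row. PARP1 had 0.25 inside and 0.32 outside, PARP2 0.17 and 0.35, and UNG 0.91 (0.35 to 1.51) and 0.33. The window shares inside the cluster differed between estradiol and vehicle by -0.51 percentage points for Abasic, 0.15 for GU, 1.01 for Uracil1, -0.87 for Uracil2, 0.20 for Uracil3 and -1.38 for riboG. Inside the cluster the Abasic value turned to 0.31 points at positions 45 and 46 alone. It was -2.50 without the 5% of cells with most all-gene UMIs. In the other cells the shares went from 66.0% in vehicle to 61.8% with estradiol for Abasic, 6.88% to 7.91% for GU and 27.7% to 28.4% for Uracil1. They went from 15.1% to 15.2% for Uracil2, 9.84% to 10.9985% for Uracil3 and 5.77% to 5.53% for riboG.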

How the data were processed

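MM134 cells given vehicle or estradiol were profiled in 4 samples, 1 targeted mRNA library and 1 repair library for each treatment. The submitters' processing notes name UMI-tools 0.5.3, Bowtie2 2.3.2, cutadapt 1.8.3, SAMtools, Cell Ranger 3.0.2 and hg38, with no role or order. The deposited values are a natural log of 1 plus 10000 times a UMI count over the total of its kind of row, as the values themselves show, and they returned whole counts in every cell. The deposited metadata give each cell's counts, cluster, phase, percent of mitochondrial RNA and 8 scores. How clusters, phases and scores were made was not given in the sources used here.

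UMI counts were summed per group and set as CPM ratios with exact conditional 95% intervals, shares with exact binomial intervals (Clopper-Pearson), for counting error only, with Python 3.11.15, numpy 2.4.6, scipy 1.17.1 and pandas 2.3.3. Counts have no replicate, so no test was run. Named genes needed at least 200 UMIs in each treatment (100 for estradiol inside the cluster), at least 20 CPM and intervals excluding 1. The 12 highest and 12 lowest in each kind of row were named by the smaller ratio of both treatments, the 10 highest and lowest for estradiol, the 5 furthest each way for its difference, and MDC1, ESR1, PGR, PARP1, PARP2, UNG, APEX1 and RNASEH2A in any case. A gene that this rule picks is not reported here. Members and gene lists were chosen with earlier results of these data known. HSPA6 and list members outside the rule were chosen after their values were seen. Depth bins, G2M cells by depth and the comparison with cluster 4 were chosen after seeing the data. Interval code was tested on simulated data. No doublet caller was run.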

Additional observations from a re-analysis of the deposited data

Results flagged for a closer look

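The results below moved in opposite directions in both groups compared, and none of these differences was tested, since each treatment has 1 library. TXNIP in panel rows was at -0.11 (log2 ratio of cluster 3 over the other cells) in vehicle and 0.30 with estradiol. IL1R1 was at -0.11 and 0.18, CASP8 at -0.29 and 0.17, TNC at -0.29 and 0.37, and FOS at -0.17 and 0.24 in panel rows. Among all-gene rows STX17 was at -0.84 in vehicle and 0.47 with estradiol, and RNMT at -0.50 and 0.46. Inside the cluster STX17 held 28 UMIs in vehicle and 77 with estradiol, and RNMT 50 and 120, so their values rest on few counts. As estradiol over vehicle, STX17 was at 0.81 inside the cluster and -0.49 in the other cells, RNMT at 0.62 and -0.35, and PITX1 at -0.39 and 0.52. The median of the ribonucleotide excision list, as estradiol over vehicle in all-gene rows, was -0.19 inside the cluster and 0.14 in the other cells.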

How the results depend on the processing

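No paired analysis was possible because each treatment has 1 library of each kind. Of 1062 list medians recomputed 856 stayed within the spread allowed and 17 changed sign, and of 1024 named-gene values 793 stayed and 20 changed sign. Of 188 repair values 113 stayed and 7 changed sign. The cause of each change was not tested. Rare genes rest on few UMIs, and counts of genes past 1.5-fold changed with the UMI minimum and in the depth bins. Those bins compared fewer cells, and most of the other cells in them were called G2M. The part of depth or phase in these counts was not tested. In panel rows in vehicle 17 higher became 27 at 50 UMIs, 10 without the deepest 5% of cells and 36 in depth bins, and 9 lower became 21 at 50 UMIs, 3 by per-cell means, 0 at equal phase weight and 30 in depth bins. In panel rows with estradiol 6 higher became 3 by median-of-ratios, 14 at 50 UMIs, 2 at 500, 2 at equal phase weight, 17 with the other clusters weighted equally and 40 in bins, and 12 lower became 20, 1 at equal phase weight and 43 in bins. For estradiol inside the cluster 16 higher panel genes became 27 by median-of-ratios and 87 lower became 54 at 500 UMIs. In all-gene rows in vehicle 71 higher became 474 at 50 UMIs, 9 at 500, 116 without the deepest cells and 195 in bins, and 146 lower became 537, 48, 229 and 312. With estradiol 19 higher became 292, 3, 106 with clusters weighted equally and 206 in bins, and 88 lower became 306, 41, 8 at equal phase weight and 260 in bins. For estradiol inside, 198 higher became 390 and 34, and 164 lower became 421, 11 and, without the deepest cells, 261.

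Lists with a median at least 0.1 from 0 numbered 7 in panel rows with estradiol and became 11 with clusters weighted equally and 13 in bins. In all-gene rows 8 in vehicle became 15 at 500 UMIs and 17 in bins, 9 with estradiol became 5 at equal phase weight and 15 with clusters weighted equally, and 22 for estradiol inside became 12 at 500. The cluster's share of 8.52% became 10.6% in cells of at least 800 UMIs and 5.37% without the deepest 5%, and 19.3% became 15.7%. Its G2M share with estradiol, 25.7%, became 22.2% there. The repair depth ratio in vehicle, 1.37, was 1.52 in G1 and 1.20 in G2M cells, the all-gene ratio of 2.45 was 2.99 and 1.93, and 1.98 with estradiol was 2.297 and 1.74.

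The Abasic difference of -20.1 points in vehicle became -21.2 at positions 45 and 46, -21.4 thinned to 500 repair UMIs, -15.7 without the deepest cells, -3.56 in depth bins and -13.3 against cluster 4. The -16.4 with estradiol became -17.0, -17.5, -13.7, -4.67 and -12.6, -16.9 by per-cell means and -17.4 at equal phase weight. Estradiol inside, -0.51, became 0.31 at positions 45 and 46, -1.34 at equal phase weight and -2.50 without the deepest cells, and 3 of 9 hairpins higher became 5 and 1.

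At equal phase weight G2/M genes changed sign in vehicle: CENPA 0.36, CCNA2 0.15, TTK 0.14, TOP2A 0.072 and CDC25C 0.18 in panel rows, and HMMR 0.47, CENPE 0.0062, AURKA 0.17, KIF14 0.13, DLGAP5 0.12, KIF2C 0.086, KIF20A 0.41 and CENPF 0.10 in all-gene rows. With estradiol CENPA was 0.20, HMMR 0.13 and KIF2C 0.056. Depth bins gave DUSP8 -0.0013 in vehicle and NR4A1 -0.29 with estradiol, and equal clusters gave DNMT3B 0.016 and PARP2 0.29. The G2/M list in vehicle at equal phase weight was 0.14 in panel and 0.079 in all-gene rows. Panel histones in vehicle were 0.11 at equal phase weight, 0.15 with clusters weighted equally and 0.17 among G2M cells in bins, and with estradiol 0.27 and 0.10, and 0.16 and 0.082 in all-gene rows. Estrogen-repressed genes with estradiol were -0.0016 in panel and -0.083 in all-gene rows with clusters weighted equally and -0.041 among G2M cells in bins. Their main panel median with estradiol was 0.21. Hypoxia was -0.018 among G2M cells in bins, sterol -0.067 in bins and -0.00021 among G2M cells, and apoptosis -0.072 and -0.15. TI was -0.0050 points without the deepest cells and -0.028 in bins, Uracil1 1.40 and 2.57 in bins and 0.935 and 2.42 against cluster 4, and riboG with estradiol -0.125 against cluster 4.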
